A study of Mus musculus with 7 samples.

Results

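The genes described here are targets of the Wnt/beta-catenin pathway: Axin2, Nkd1, Apcdd1, Sp5, T, Cdx1, Rnf43, Znrf3, Notum and Lgr5. They were chosen by name, with earlier results of these data known. Each gene was read through the probe set with exactly 1 gene symbol, or the brightest of several such probe sets. Of the 10 genes, 9 were measured in this way, out of 19938 genes in all, each by 1 probe set. The array annotation names no probe set for T (brachyury, a transcription factor of the primitive streak), so T was not analysed here.

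Messenger RNA was measured on 7 Affymetrix arrays from mouse cells, 1 culture per array. Mouse embryonic fibroblasts (MEFs) came from 129/OG2 embryos at 13.5 dpc, with 1 array in FBS medium and 1 in the medium named iCD1, whose composition the labels do not give. Fibroblasts infected with Oct4 had given induced pluripotent stem (iPS) cells, of which the lines O4-1, O4-2 and O4-4 each had 1 array in KSR medium, and line O4-1 had another array in N2B27(2i). Embryonic stem (ES) cells labelled OG2 had 1 array in N2B27(2i). The OG2 background carries a green fluorescent reporter driven by Oct4 regulatory sequence. The 2i supplement combines an inhibitor of MEK with an inhibitor of GSK3. No MEF array was in KSR or 2i, no iPS array in FBS or iCD1, and no ES array in KSR. Some label fields go against the titles, which were used for the groups: the descriptions speak of newly infected cells throughout, and the source given for the ES sample is fibroblasts.

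In the Wnt pathway, a complex of Axin, APC, casein kinase 1 and the kinase GSK3 marks beta-catenin for breakdown. Wnt ligands at Frizzled and LRP receptors, or inhibition of GSK3, stop this, and beta-catenin then acts with TCF/LEF factors at DNA. Many of the genes turned on in this way feed back on the pathway itself, and in mouse pluripotent cells GSK3 inhibition also relieves repression by Tcf7l1. In 2i medium this relief is known to sustain self-renewal.

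RefSeq promoter windows (GRCm38.p6) of 5 of the 10 genes were used. The stretches of 250 bases before the start site are shown for Axin2 and Nkd1, which were among the genes that differed most between the fibroblast media, and for Sp5, which hardly differed there. Capitals mark a match to the TCF/LEF motif, searched as CTTTGAT and CTTTGAA on both strands, which cannot match at the same position.
Axin2 promoter, chr11:108920099-108920348, + strand: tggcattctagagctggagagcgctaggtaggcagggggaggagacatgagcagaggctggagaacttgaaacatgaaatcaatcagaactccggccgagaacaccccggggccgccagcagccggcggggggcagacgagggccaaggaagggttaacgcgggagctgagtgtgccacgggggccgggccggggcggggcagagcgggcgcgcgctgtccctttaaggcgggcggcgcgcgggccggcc
Nkd1 promoter, chr8:88527383-88527632, + strand: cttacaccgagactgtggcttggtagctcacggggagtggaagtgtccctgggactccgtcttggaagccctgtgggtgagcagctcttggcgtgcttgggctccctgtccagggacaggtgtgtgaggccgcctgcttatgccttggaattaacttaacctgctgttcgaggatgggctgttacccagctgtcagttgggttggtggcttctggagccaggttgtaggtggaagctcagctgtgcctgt
Sp5 promoter, chr2:70474673-70474922, + strand: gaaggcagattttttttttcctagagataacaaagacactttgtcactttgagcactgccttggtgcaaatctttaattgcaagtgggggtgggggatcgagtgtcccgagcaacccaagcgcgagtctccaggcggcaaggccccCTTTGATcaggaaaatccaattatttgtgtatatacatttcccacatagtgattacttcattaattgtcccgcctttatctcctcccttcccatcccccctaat
The Sp5 stretch held 1 match, CTTTGAT, starting 104 bases before the start site. The stretches of Axin2 and Nkd1 held 0 matches to either motif. CTTTGAT was in 3.21% and CTTTGAA in 4.46% of all 32817 stretches of this length, and either of them in 7.48%. The Sp5 stretch ends right before the annotated gene, which spans 70474923 to 70477726 on chromosome 2. The stretches of Axin2 and Nkd1 lie inside their annotated genes, which begin upstream at 108917828 on chromosome 11 and at 88521342 on chromosome 8, so they belong to inner start sites. A match describes these letters and is no evidence of binding.

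Values are log2 expression, and the array medians over all probe sets lay between 4.97 and 5.03. The 8 pluripotency markers were higher in every KSR iPS line than in the MEFs and all 8 rose in limma (against 12.1% of all genes). Pou5f1, which encodes Oct4, was at 3.40 in FBS and 4.04 in iCD1 against 10.61 to 10.99 in the iPS and ES arrays. Of 12 fibroblast markers, 10 fell in limma in the KSR lines (against 14.3% of all genes), and Lum and Dcn did not pass (limma, adjusted p = 0.0762 and 0.0854). Only the KSR lines were replicated (n = 3 lines), and nothing in the labels says whether the other cultures were separate, so p-values measure the spread between these lines. The deposited values come with no detection call, so low values were not separated from background, and precision is limited by how few arrays there are. In RNA from whole cultures, fewer cells with a transcript and less transcript per cell cannot be told apart.

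In fibroblasts, Axin2, Nkd1, Apcdd1 and Lgr5 were each more than 2-fold higher in iCD1 than in FBS, while Notum was higher by less. Axin2, the scaffold of the beta-catenin breakdown complex and the most widely used Wnt target, was at 5.08 in FBS and 7.02 in iCD1, a difference of 1.94. Nkd1, an inhibitor that binds Dishevelled, was at 5.04 and 6.89, a difference of 1.85. Apcdd1, a membrane inhibitor that binds Wnt and LRP5, was at 6.71 and 8.78, a difference of 2.07. These 3 genes were 2-fold or more higher on the iCD1 array. Lgr5, a receptor for R-spondins, was at 4.83 and 6.33, a difference of 1.50. Notum, a secreted enzyme that inactivates Wnt by removing its lipid, was at 5.07 and 5.89, a difference of 0.82. The ubiquitin ligases Rnf43 and Znrf3, which remove Frizzled from the cell surface, differed little, with Rnf43 at 4.58 and 4.83 and Znrf3 at 5.44 and 5.67. The transcription factor genes went slightly the other way, with Sp5 at 3.83 in FBS and 3.75 in iCD1 and the caudal homeobox gene Cdx1 at 5.67 and 5.33.

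Of the 9 genes, 4 were 2-fold or more higher in iCD1, against 1.70% of all 19938 genes, and 0 were 2-fold or more lower, against 0.998%. In all, 7 lay higher, against 44.8% of all genes, and the median difference was 0.82, beside -0.024 over all genes. With 1 array per medium these differences have no test. As a yardstick, the range between the 3 KSR iPS lines was 1.56 for Axin2, 0.30 for Nkd1, 0.57 for Apcdd1, 0.36 for Notum, 0.15 for Rnf43 and 0.27 for Lgr5, and the difference between the MEF arrays was larger than this range for these 6 genes, against 16.0% of all genes. The lines are another cell type, so their range does not measure the spread between fibroblast cultures. Nkd1, Rnf43 and Lgr5 also lay under the median of all genes in these lines, where RMA compresses differences.

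**Figure D1:**
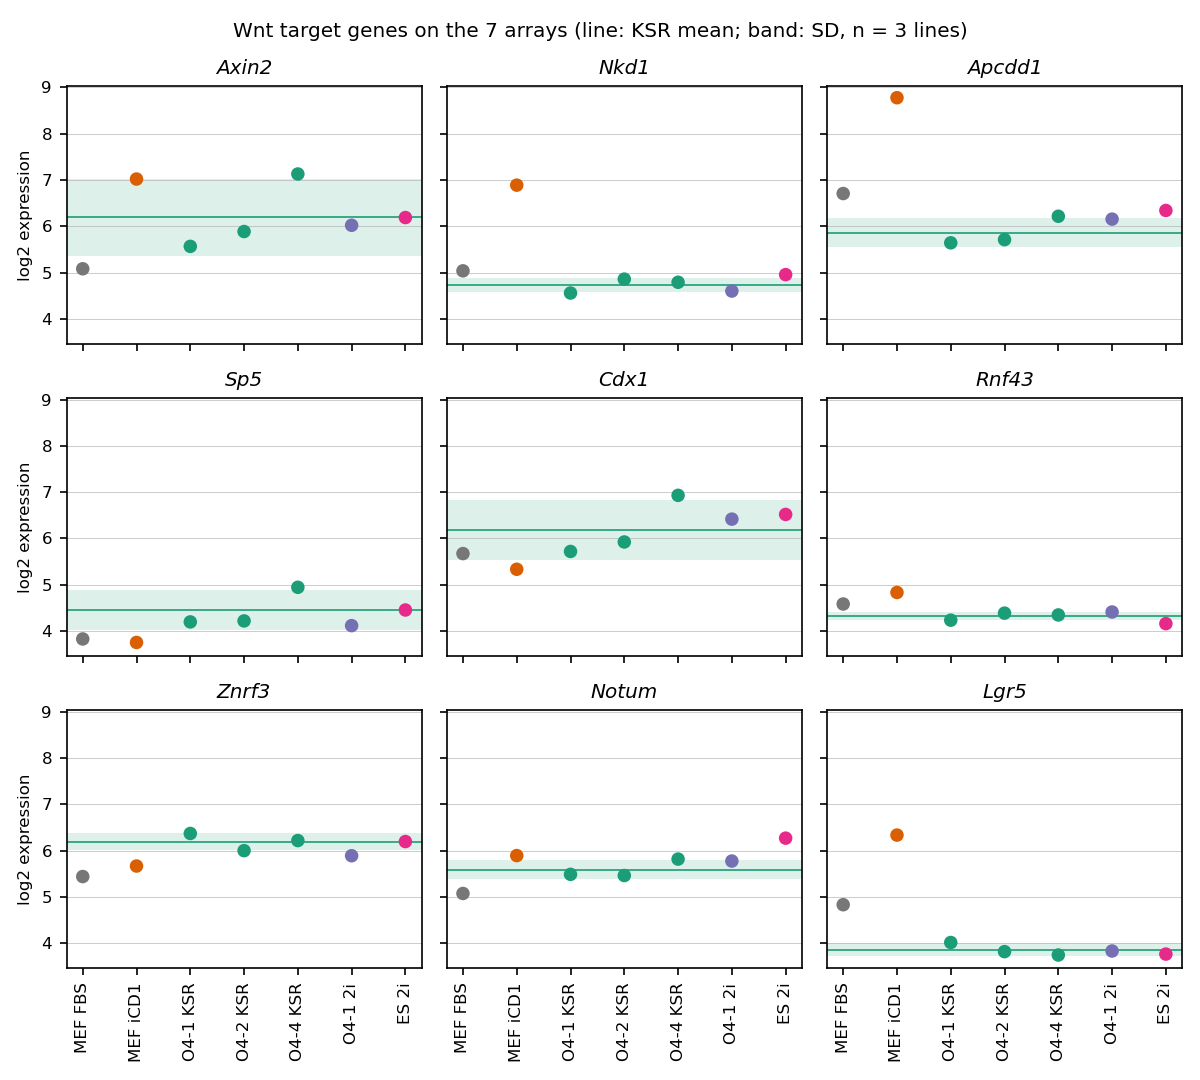
Log2 expression of the 9 measured Wnt target genes (1 panel each) on the 7 arrays; the line and band give the mean and SD of the 3 KSR iPS lines. MEFs in iCD1 are the highest array for Nkd1, Apcdd1, Rnf43 and Lgr5, and line O4-4 in KSR is the highest for Axin2, Sp5 and Cdx1.

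In iPS line O4-1, differences between 2i, with its GSK3 inhibitor, and KSR ran from -0.48 (Znrf3) to 0.70 (Cdx1) over the 9 genes. They were smaller in size than in fibroblasts for 6 genes, and larger for Cdx1 and Znrf3 and slightly for Sp5. Axin2 was at 5.57 in KSR and 6.02 in 2i, a difference of 0.46. Apcdd1 was at 5.64 and 6.16, a difference of 0.51. Cdx1 had the largest difference, 0.70, with 5.72 in KSR and 6.42 in 2i. Of the genes that stood out in fibroblasts, Nkd1 was at 4.56 and 4.60 and Lgr5 at 4.01 and 3.83, so neither was clearly higher in 2i. Notum was at 5.49 and 5.77, Rnf43 at 4.24 and 4.41 and Sp5 at 4.20 and 4.12. Znrf3 was lower in 2i, at 5.89 against 6.37 in KSR, a difference of -0.48. In all, 6 of the 9 genes lay higher in 2i and 3 lower, where 51.9% of all genes lay higher, with a median of 0.18 beside 0.015 over all genes.

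None of the 9 genes was 2-fold or more higher in 2i (0 of 9, against 0.481% of all genes) or lower (0 of 9, against 0.953%). The difference was larger than the range of the KSR lines for 2 of the 9, Rnf43 and Znrf3, against 32.7% of all genes. The choice of KSR line set the direction for several genes. Against line O4-4 in KSR, Axin2 in O4-1 in 2i was at -1.11 and Cdx1 at -0.51, and the median was -0.19 with 1 gene 2-fold or more lower. Sp5, at -0.83 against O4-4, was lower in 2i than in each KSR line, so only the size of its difference depended on the line.

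**Figure D2:**
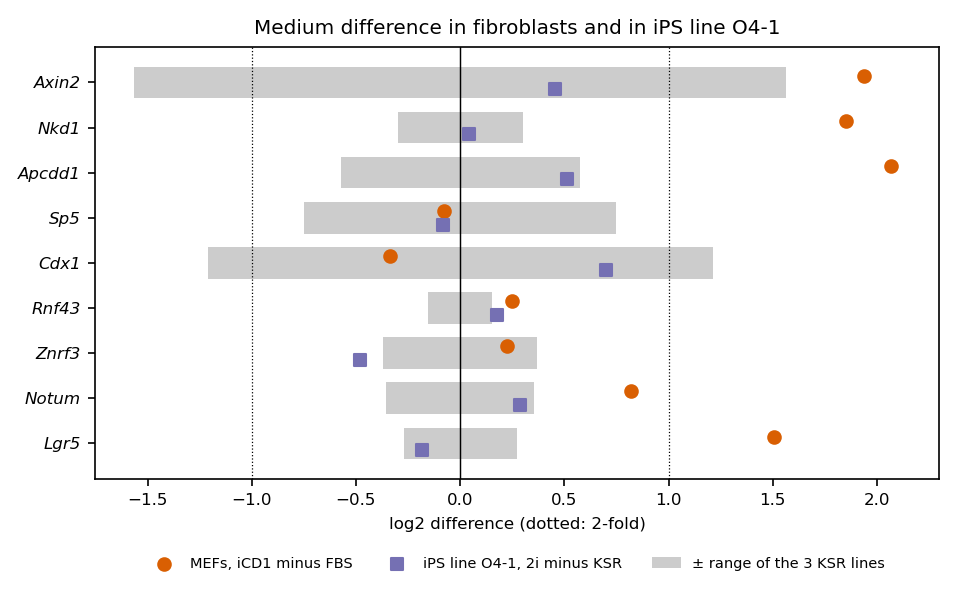
Log2 difference of each Wnt target gene between iCD1 and FBS in MEFs (circles) and between 2i and KSR in iPS line O4-1 (squares), 1 array per medium; grey bars show plus and minus the range of the 3 KSR iPS lines. Circles lie beyond the bars on the right for Axin2, Nkd1, Apcdd1, Rnf43, Notum and Lgr5, and the squares lie beyond them for Rnf43 and Znrf3.

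Set side by side, the fibroblast difference exceeded the O4-1 difference by 1.81 for Nkd1, 1.69 for Lgr5, 1.56 for Apcdd1 and 1.48 for Axin2. Znrf3 had 0.71, Notum 0.53, Rnf43 0.072 and Sp5 0.0044, while Cdx1 had -1.04 and was the gene of which the O4-1 difference was the higher. Thus 8 of 9 values were above 0, against 45.2% of all genes, and 4 were at 1 or more, against 3.54% of all genes, with a median of 0.71 beside -0.049 over all genes. Nkd1 (4.56 in KSR and 4.60 in 2i) and Lgr5 (4.01 and 3.83) lay low on both O4-1 arrays. Their values there were under the median of all genes, which was 5.16 to 5.27 over the arrays. Low values were not separated from background, so a change in 2i could be missed for these genes. The comparison has no test, since each cell type has 1 array per medium, and the media themselves were different ones.

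Few genes of any kind were 2-fold or more higher in both comparisons, 6 of all 19938 (0.0301%), which is 1.77% of those higher in iCD1 and 6.25% of those higher in 2i. None of the Wnt targets was among them. The fatty acid desaturase genes Scd1 (1.57 in MEFs and 2.37 in O4-1) and Scd2 (1.12 and 1.99), which are close copies, were, as were the histone gene H2bc9 (1.70 and 1.56), the protease-like gene Prss35 (1.82 and 1.12) and the glycolytic aldolase gene Aldoc (1.04 and 1.28). Lower in both were 10 genes (0.0502%), which is 5.03% of those lower in iCD1 and 5.26% of those lower in 2i. Among these was Myc, a proto-oncogene long known as a Wnt target in colon cells, with 8.28 for FBS and 6.59 for iCD1 in MEFs, and with 6.98 in O4-1 in KSR and 5.46 in 2i. Genes of the smooth muscle contractile apparatus were there too, with Acta2 at -1.93 and -1.99, Myl9 at -2.32 and -1.60, and Tagln at -2.62 and -1.42, as was the matrix gene Thbs1 at -1.70 and -1.24. Plaur (-1.86 and -1.35), Peg10 (-1.63 and -1.36), Cdh3 (-1.04 and -1.36) and Slc6a15 (-1.19 in MEFs, and 6.66 in KSR against 5.65 in 2i in O4-1) were the rest of those above the array median.

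**Figure D3:**
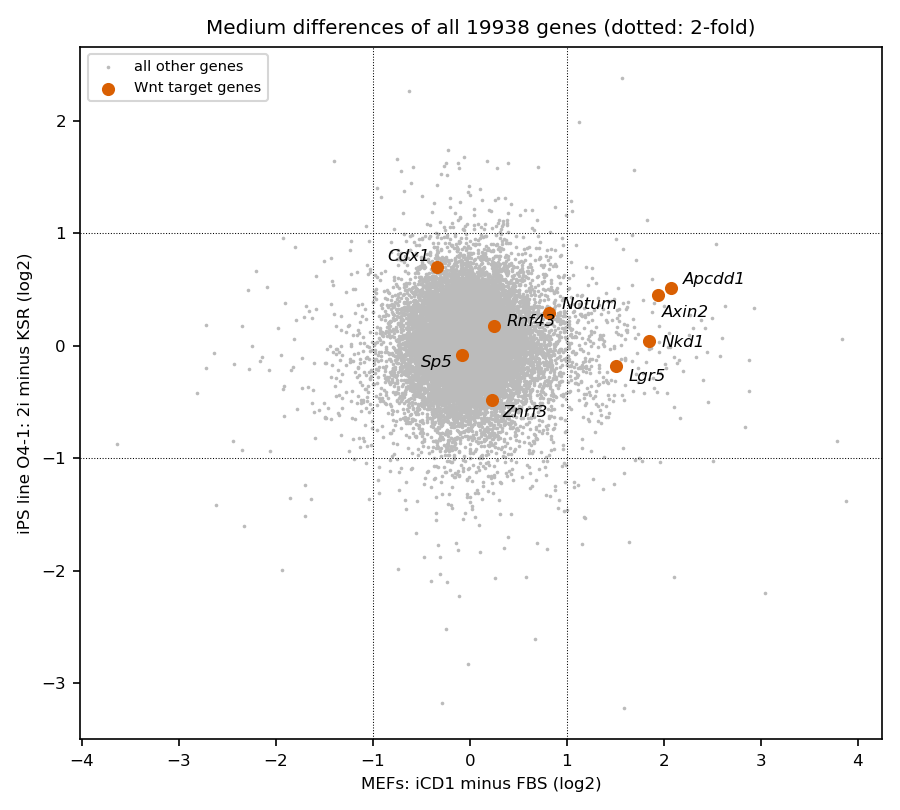
Log2 difference between iCD1 and FBS in MEFs (x axis) against that between 2i and KSR in iPS line O4-1 (y axis) for all 19938 genes, with the 9 Wnt target genes in orange and dotted lines at 2-fold. Axin2, Nkd1, Apcdd1 and Lgr5 lie right of the 2-fold line, and no Wnt target lies above the upper one.

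Among the KSR iPS lines, Axin2 varied more than it did between the O4-1 media. Its level was 5.57 in O4-1, 5.89 in O4-2 and 7.13 in O4-4, so that O4-4 in KSR was above the ES array (6.19) and slightly above MEFs in iCD1. Cdx1 was at 5.72, 5.92 and 6.93 in the same order of lines, and Sp5 at 4.20, 4.22 and 4.95. Line O4-4 stood above both other lines for these 3 genes and for Apcdd1 (5.64, 5.71 and 6.22) and Notum (5.49, 5.46 and 5.82). Axin2 and Cdx1 were 2-fold or more higher in O4-4 than in both other lines (2 of 9 genes, against 0.542% of all genes), and 0 of 9 were 2-fold or more lower (against 0.481%). Taken singly, O4-4 was 2-fold or more higher than O4-1 for 2 of 9 (against 0.777% of all genes) and lower for 0 (0.777%), and 2-fold or more higher than O4-2 for 2 of 9 (1.44%) and lower for 0 (1.39%). Between O4-2 and O4-1, 0 of 9 differed 2-fold (against 0.281% higher and 0.331% lower). Nkd1 (4.56, 4.86 and 4.79), Rnf43 (4.24, 4.39 and 4.35), Znrf3 (highest in O4-1, at 6.37, with 6.22 in O4-4) and Lgr5 (4.01, 3.82 and 3.74) did not share this pattern. Of 6 naive pluripotency genes that Tcf7l1 is known to repress, 5 were higher in O4-4 than in O4-1 (against 49.2% of all genes), with Nanog at 10.16, 9.94 and 11.55 and Tfcp2l1 at 7.37, 6.70 and 9.68. The nuclear effector gene Lef1 was lower in O4-4, at 7.13, 7.69 and 5.71. The summed signal of 12 fibroblast markers, as log2 of the sum of linear values, was 11.37, 11.37 and 12.15 in the 3 lines, and its part in these differences was not tested.

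Both 2i cultures were then tested against the 3 KSR lines in limma. No gene passed an adjusted p of 0.05 for iPS cells in 2i (0 of 19938 genes, 0%) or for ES cells (0%), and 6.72% and 8.76% of all genes had an unadjusted p under 0.05, so 0 of the 9 Wnt targets passed in either comparison. Apcdd1 was 0.30 ± 0.29 (SE, 1 array against 3 lines) higher in iPS cells in 2i (limma, adjusted p = 0.847) and Axin2 was at -0.17 ± 0.72 (limma, adjusted p = 0.971). The iPS array in 2i lay inside the range of the KSR lines for 6 of the 9 genes and outside it for 3, Sp5, Rnf43 and Znrf3, against 51.1% of all genes outside. The 2i arm is 1 array, from a line that is also among the KSR lines, and its spread was taken to be that of those lines, so the fit's intervals rest on 2 residual degrees of freedom and do not bound the effect of the medium. Under that assumption the 95% interval ran from -0.62 to 0.35 for Nkd1 and from -0.48 to 0.43 for Lgr5, while it ran from -2.24 to 1.90 for Axin2 and from -1.41 to 1.86 for Cdx1, which varied most between the KSR lines.

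In ES cells in 2i, Notum was the gene with the largest difference from the KSR lines, at 6.27 against 5.59 ± 0.20 (SD, n = 3), which is 0.68 ± 0.20 higher (SE; limma, adjusted p = 0.571, unadjusted p = 0.0306). Its value lay above all 3 KSR lines (5.46 to 5.82) and was the highest of the 7 arrays. Nkd1 (4.96), Apcdd1 (6.34) and Notum lay above the range of the KSR lines and Rnf43 (4.16) below it, 4 of 9 genes outside against 53.3% of all genes. Axin2 in ES cells, at 6.19, was at -0.0053 ± 0.72 against the KSR mean (SE; limma, adjusted p = 1), and Sp5, Cdx1, Znrf3 and Lgr5 also lay inside the range. Between the 2i cultures, with 1 array each and no test, 7 of the 9 genes were higher in ES than in iPS cells (against 46.5% of all genes), by at most 0.49 (Notum), and 0 reached 2-fold either way (against 0.672% of all genes higher and 0.306% lower). Of 12 fibroblast markers, 11 were also higher in ES than in iPS cells, 3 of them 2-fold or more, with a median of 0.62 and a log2 summed signal of 12.03 against 11.29, and their part in the Wnt target values was not tested.

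**Figure D4:**
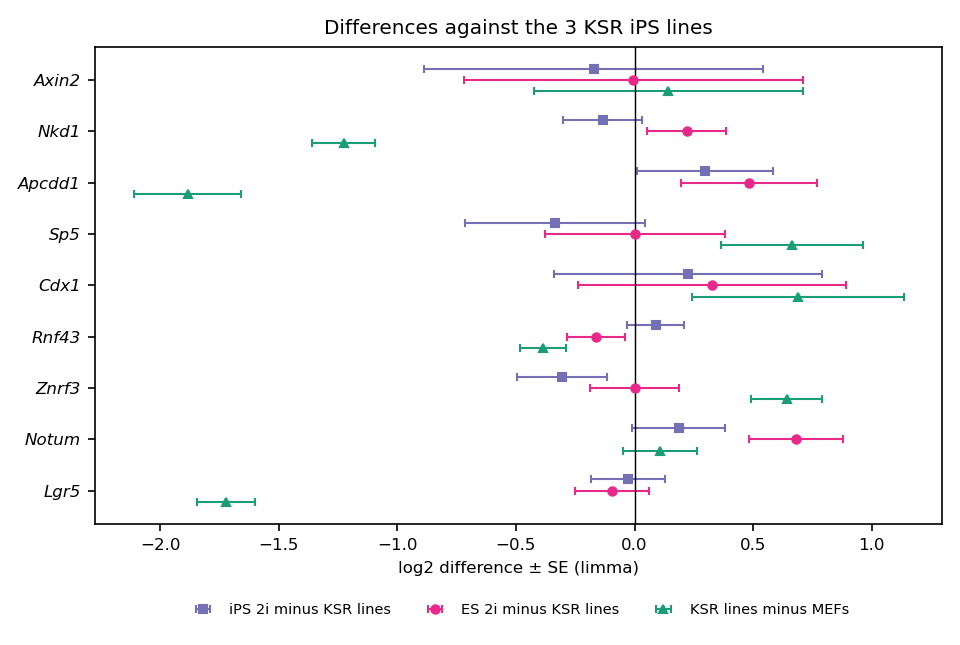
Log2 differences of the 9 Wnt target genes for the iPS array and the ES array in 2i against the 3 KSR iPS lines, and for the KSR lines against the mean of both MEF arrays, each with the SE from limma. Only Nkd1, Apcdd1 and Lgr5 in the KSR lines against MEFs, at -1.23, -1.88 and -1.72, passed an adjusted p of 0.05 in limma.

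The KSR lines were also compared with the fibroblasts, where cell type and medium changed together. Nkd1, Apcdd1 and Lgr5 fell and 0 of the 9 rose. Lgr5 was at 4.83 and 6.33 in MEFs and at 3.74 to 4.01 in the KSR lines, and fell by 1.72 ± 0.12 (SE, 3 lines against 2 arrays; limma, adjusted p = 0.00826). Apcdd1 fell by 1.88 ± 0.23 (limma, adjusted p = 0.0153) and Nkd1 fell by 1.23 ± 0.13 (limma, adjusted p = 0.013). These 3 of 9 genes compare with 14.3% of all genes that limma called lower and 12.1% that it called higher (26.4% in all, with 39.0% at an unadjusted p under 0.05). Znrf3 was 0.64 ± 0.15 higher (limma, adjusted p = 0.0564) and Rnf43 was at -0.39 ± 0.10 (limma, adjusted p = 0.0649), both short of the threshold. Sp5, at 0.66 ± 0.30, and Cdx1, at 0.69 ± 0.45, lay higher in each KSR line than in either MEF array (limma, adjusted p = 0.21 and 0.357).

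These values differed with the medium of the fibroblasts. Against MEFs in FBS alone, where limma called 14.9% of all genes, Lgr5 was the 1 Wnt target that passed, at -0.97 ± 0.16 (limma, adjusted p = 0.04), and Nkd1 was at -0.30 ± 0.17 (limma, adjusted p = 0.327). Against MEFs in iCD1 alone, where limma called 19.8%, Lgr5 was at -2.47 ± 0.16, Nkd1 at -2.15 ± 0.17 and Apcdd1 at -2.92 ± 0.29 (limma, adjusted p = 0.0127, 0.0136 and 0.0163). Axin2 changed sign with the medium, being 1.11 ± 0.72 higher in the KSR lines than in FBS and at -0.83 ± 0.72 against iCD1 (limma, adjusted p = 0.39 and 0.505). Notum did likewise, at 0.51 ± 0.20 and -0.30 ± 0.20 (limma, adjusted p = 0.186 and 0.374). The KSR mean lay between both MEF arrays for these 2 of 9 genes, against 21.4% of all genes. With line O4-1 left out, and likewise with O4-2 left out, there were 0 genes past the threshold of limma (5804 and 6924 had an unadjusted p under 0.05), so 0 of the 3 calls were kept, and without line O4-4 Lgr5 and Apcdd1 were kept and Nkd1 was not (limma, adjusted p = 0.0561).

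The remaining genes of the pathway were read from lists by role. Their counts stand beside 44.8% of all genes higher in iCD1, with 1.70% 2-fold or more higher and 0.998% lower, and beside 46.2% of all genes lower in 2i in O4-1, with 0.481% 2-fold or more higher and 0.953% lower. Among 7 relatives of the target genes, all 7 were higher in MEFs in iCD1, with a median of 0.28, though Axin1 (0.0076) and Cdx4 (0.0024) hardly differed. Nkd2, the paralog of Nkd1, was the 1 that reached 2-fold, at 4.76 in FBS and 5.99 in iCD1. In O4-1, Nkd2 was 0.54 higher in 2i, at 4.66 against 4.12. Among 17 measured genes of another list of reported targets, with a median of 0.0089 in MEFs, the cell adhesion gene Nrcam was 1.82 higher in iCD1, and Myc and Ccn5 were 2-fold or more lower, at -1.69 and -1.48. Lef1, both a target and a nuclear partner of beta-catenin, was 0.87 higher in iCD1 and at -0.91 in 2i in O4-1. The cyclin gene Ccnd1 was at 9.99 and 10.20 in MEFs and at 9.21 and 8.85 in O4-1. In this list, 1 of 17 genes was 2-fold lower in 2i (Myc) and 0 were higher.

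Among the upstream genes, the R-spondin gene Rspo2, whose product binds Lgr receptors, was at 7.07 in FBS and 4.91 in iCD1, a difference of -2.16. The 19 ligand genes had 0 members past 2-fold in MEFs and 1 in O4-1, Wnt8a, which was at 5.17 in KSR and 3.97 in 2i, while O4-2 in KSR had 6.09 and O4-4 had 3.87. Of 15 receptor genes Fzd4 was 2-fold or more lower in iCD1, at 4.24 against 5.46, and 0.93 higher in 2i in O4-1. Of 13 secreted inhibitors and their receptors, Sfrp4 was lower in iCD1 (-1.10) and Sfrp1 higher in 2i in O4-1, at 6.88 against 5.50, with 7.87 in ES cells. None of the 12 breakdown complex genes and none of the 12 measured nuclear effector genes differed 2-fold in either comparison, with Ctnnb1, which encodes beta-catenin, at 9.71 and 9.95 in MEFs and at 9.67 and 9.38 in O4-1. Of those 12 nuclear effector genes, 11 were higher in iCD1 (against 44.8% of all genes) and 8 were lower in 2i (against 46.2%), with medians of 0.20 and -0.18.

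In the KSR lines against MEFs, limma called 1 receptor gene higher and 5 lower out of 15, among them Fzd5, which rose by 1.61 ± 0.21 (limma, adjusted p = 0.0172), and Fzd1, which fell by 2.28 ± 0.19 (limma, adjusted p = 0.00899). These counts stand beside 12.1% of all genes called higher and 14.3% called lower. Of 19 ligand genes 3 fell, a share near that of all genes, with Wnt5a, a ligand of mesenchyme, the largest, which fell by 3.33 ± 0.17 (limma, adjusted p = 0.00688). Porcn, the acyltransferase that lipidates Wnt, rose by 1.32 ± 0.11 (limma, adjusted p = 0.00951), while Wls, the carrier that takes Wnt to the cell surface, fell by 3.15 ± 0.24 (limma, adjusted p = 0.00852). The repressor gene Tcf7l1 rose by 1.16 ± 0.11 (limma, adjusted p = 0.0106). In O4-1 it was at 8.26 in KSR and 7.74 in 2i, and in ES cells at 7.76.

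**Figure D5:**
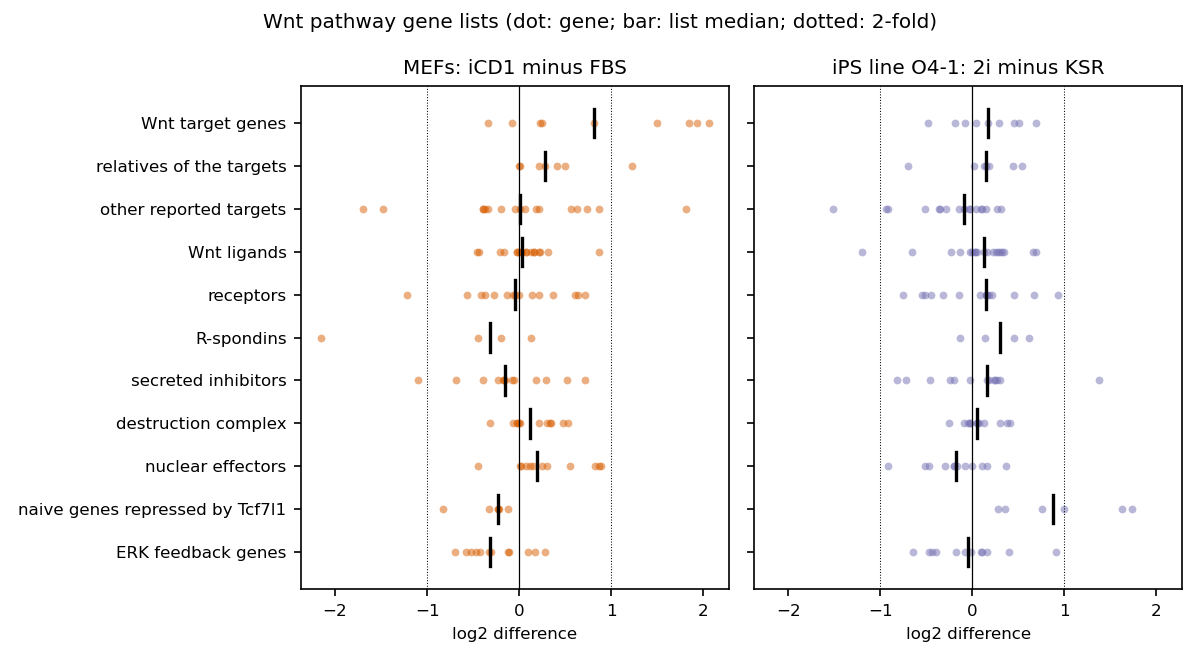
Log2 differences of the genes of each Wnt pathway list, and of ERK feedback genes, for iCD1 minus FBS in MEFs (left) and 2i minus KSR in iPS line O4-1 (right); dots are genes, bars list medians and dotted lines 2-fold. The Wnt target list has the highest median on the left (0.82), and the list of naive genes repressed by Tcf7l1 has the highest on the right (0.88).

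The 6 naive genes known to be repressed by Tcf7l1 were also read in both comparisons. All 6 were higher in 2i (against 51.9% of all genes), with a median of 0.88, and Tfcp2l1 (7.37 and 9.10) and Tbx3 (7.28 and 8.91) were 2-fold or more higher (against 0.481% of all genes). In MEFs all 6 were lower in iCD1 (against 53.0% of all genes), with a median of -0.23 and 0 past 2-fold (against 1.70% of all genes higher and 0.998% lower). The list was a median of 3.74 higher in the KSR lines than in MEFs. Low values were not separated from background, so these small fibroblast differences cannot be read as regulation. Against the 3 KSR lines limma called 0 of the 6 in 2i. In KSR, line O4-4 was above O4-1 for 5 of the 6 and below it for 1, with a median difference of 1.02. The size of the 2i difference thus depended on the KSR line used. The feedback genes of ERK, whose upstream kinase is the other target of 2i, had a median of -0.045 in O4-1. Of these 12 genes, 7 were lower (against 46.2% of all genes) and 5 higher. None passed 2-fold (0 of 12, against 0.481% of all genes higher and 0.953% lower). Dusp6 was among the lower ones, at 7.83 in KSR and 7.36 in 2i. Genes of the primitive streak and mesoderm, where T and Cdx1 act in the embryo, also had 0 of 12 members past 2-fold in either comparison.

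Markers of cell types moved beside these differences. In MEFs, 6 of 12 fibroblast markers were higher in iCD1 (against 44.8% of all genes) and 6 lower, with a median of 0.079. Lum, Dcn, Pdgfra and Col3a1 were 2-fold or more higher (against 1.70% of all genes) and 0 of 12 were 2-fold or more lower (against 0.998%). The log2 of the summed linear values of the list was 14.23 in FBS and 14.35 in iCD1. The 6 macrophage markers had sums of 7.37 and 8.14, with Lyz2 at 4.99 and 6.83 and Csf1r and Ptprc both lower in iCD1. The 4 measured cartilage and bone markers had sums of 9.43 and 8.48, the 5 endothelial markers 6.54 and 6.49, the 4 keratinocyte markers 6.55 and 6.32 and the 8 pluripotency markers 7.35 and 7.30. In O4-1, 10 of 12 fibroblast markers were lower in 2i (against 46.2% of all genes), with a median of -0.53. Thy1, Pdgfra and Lum were 2-fold or more lower (against 0.953% of all genes), while the sum of the list was 11.37 in KSR and 11.29 in 2i. The part of these cell types in the Wnt target values was not tested.

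Over the 7 arrays, the gene most like Axin2 by Pearson correlation, among 6453 genes with a range of 1 or more, was the mucin gene Muc1 (r = 0.96), followed by Olfr1353 (0.96), the spermine oxidase gene Smox (0.92), the desmosome gene Dsp (0.91) and the apolipoprotein gene Apod (0.90). Each of these was higher in MEFs in iCD1 than in FBS, by 0.97 to 1.71. They were picked for following Axin2 over these same arrays, so this direction was largely set by the choice. Among the Wnt targets themselves the likeness to Axin2 was lower, with r = 0.68 for Notum, 0.49 for Nkd1, 0.47 for Apcdd1 and 0.22 to 0.43 for the other 5. These correlations describe 7 arrays that include the same line more than once and have no test.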

How the data were processed

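Total RNA of 7 cultures was extracted with Trizol and labelled with the Affymetrix whole transcript assay, per the labels' protocols. The authors deposited log2 values of each probe set, for which the submitters' processing notes name RMA and Partek; their versions and settings are not given here. RMA corrects background and normalizes between arrays, which compresses differences of dim genes.

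The table held 28853 probe sets, of which 21789 had 1 gene symbol, 1621 several and 5443 none in the annotation used. Of several probe sets for a gene the one with the highest mean was kept, which left 19938 genes. Values were used as deposited, with no filter. No 2 arrays held identical values, and the labels name no batch.

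The test was that of limma 3.58.1, run under R 4.3.3 (1 fit of 5 groups, two-sided, Benjamini-Hochberg over all genes, threshold 0.05). The 3 KSR lines gave 2 residual degrees of freedom and the limma prior had 1.62 more, with an SD of 0.13; groups of 1 array were assumed to vary like these lines. The fit was tested on simulated data, where it recovered few of the 2-fold changes in any comparison. Of log2 changes of 2, it called 43.3% for iPS cells in 2i, 56.7% for ES cells in 2i and 73.1% for the KSR lines against MEFs. Genes that did not pass may therefore still have changed by that much. Comparisons of 1 array with 1 have no test, and genes differing 2-fold or more were counted. Promoter motifs were searched in RefSeq windows.

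Named genes were the members, genes of the pathway and marker lists, up to 10 genes 2-fold higher or lower in both medium comparisons with a higher value not under the array median, and the 5 genes most correlated with Axin2. Ccn4 and Ccn5 were found through a synonym, and Tcf7, Runx2 and Bglap had no probe set used here. The members, lists and rules were chosen with earlier results of these data known. Alternatives changed the probe set rule, normalization, filter, reference arrays, prior and lines used.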

Additional observations from a re-analysis of the deposited data

How the results depend on the processing

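The 4 genes 2-fold or more higher in MEFs in iCD1 kept that side under all probe set rules and normalizations tried, with 1.92 to 1.94 for Axin2, 1.83 to 1.85 for Nkd1, 2.05 to 2.10 for Apcdd1 and 1.43 to 1.50 for Lgr5. Each of these genes had 1 probe set, so averaging over probe sets could not change its values. Before the normalizations, the array medians over all probe sets already lay between 4.97 and 5.03. Keeping only genes at or above the median mean left 5 of the 9 genes and removed Nkd1 and Lgr5, so 2 were 2-fold higher in iCD1 and 2 had a medium difference 1 or more above that of O4-1; the medians became 0.46 in O4-1, 0.19 for iPS cells in 2i and 0.33 for ES cells in 2i against the KSR lines, and limma called 1 gene higher and 1 lower in the KSR lines against MEFs. For 2i against KSR in O4-1 the median was -0.028 with the mean of the KSR lines as reference, -0.19 with line O4-4 and 1 gene 2-fold lower, and 0.40 with the ES array in place of the iPS array. Quantile normalization and centring on the array median each added 1 gene that limma called higher in the KSR lines, Znrf3 (limma, adjusted p = 0.0316 and 0.0269). With MEFs in FBS only, limma called 1306 genes higher and 1662 lower against 2415 and 2845, with 1 Wnt target lower and a median of 0.51; with MEFs in iCD1 only the median was -0.51. Leaving out each KSR line in turn gave 0 to 1207 genes higher and 0 to 1569 lower, 0 to 2 Wnt targets lower and medians of -0.32 to 0.17 against MEFs, and medians of -0.10 to 0.25 for ES cells in 2i. The causes were not tested. Of 237 summary values under an alternative 209 kept their size or call, and of 485 values of single genes 453 did. These tallies include the averaging over probe sets. They also include fits of only the arrays of the groups compared, whose limma counts equalled those of the main fit. Such settings could change little or nothing, so the tallies overstate how stable the results were. No paired analysis was possible because the groups compared share fewer than 2 replicate numbers.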
